A study of Homo sapiens with 9 samples.

Results

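The 7 genes described here are NRAS and HRAS of the RAS tier, ARAF and BRAF of the RAF tier, MAP2K1 and MAP2K2 of the MEK tier, and MAPK3 of the ERK tier. They were chosen by gene name from the 58735 genes of a read count table, and 7 of 7 passed the filter on low counts. Other genes of the RAS, RAF and ERK tiers were not analysed here. RNA was sequenced from MIA PaCa-2, an established human pancreatic cancer cell line labelled as wild type, in 9 libraries. In 3 libraries the cells had received 1 μM SCH772984, an inhibitor of the ERK kinases. In 3 libraries they had received 1 μM compound 1, an inhibitor of TBK1 and IKKε, and in 3 libraries 0.1% DMSO, the vehicle. Each treatment lasted 24 h. All libraries came from a single line at a single dose and time, and the labels do not say whether replicates were separate cultures, so that p-values measure the spread between these libraries, which may be technical.

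RAS proteins are small GTPases at the inner face of the plasma membrane that switch between a GDP-bound and a GTP-bound state. GTP-bound RAS recruits RAF kinases, which phosphorylate the MEK kinases, which in turn phosphorylate ERK on a threonine and a tyrosine. ERK phosphorylates transcription factors and other proteins, and also acts back on earlier steps of the cascade, both directly and by raising the expression of inhibitors such as the Sprouty proteins and dual-specificity phosphatases. Most pancreatic cancers carry an activating RAS mutation, and each tier holds paralogs that can stand in for each other in part. The question asked of these libraries was whether the transcript of a paralog rose where that of its partner fell.

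Library totals were 9464432 to 10286223 counts with DMSO, 9652741 to 9840769 with compound 1 and 11056977 to 13887859 with SCH772984. Replicate 1 of compound 1 stood apart. The chi-square statistic per degree of freedom over genes was 10.1 and 7.61 against the other 2 libraries of its group, which gave 2.66 between themselves, and lay between 2.34 and 6.40 for pairs within the other groups. For compound 1 against DMSO, calls, paralog ratios and tier sums are given with and without this library. So are the ratios and sums between the inhibitors. Fold changes against DMSO without it are given for NRAS, HRAS, BRAF, MAP2K1 and MAP2K2 only. List medians and levels of list genes are given with all libraries. Of the markers checked, KRT8, KRT18 and VIM were abundant in every library (at least 1840 counts), EPCAM and the leukocyte genes PTPRC and CD3E had 0 counts, CDH1 had at most 5, and CD68 and PECAM1 had at most 1. Some markers moved with SCH772984. KRT18 had 7561 to 8784 counts with DMSO and 1840 to 2546 with SCH772984, COL1A1 had 1 to 4 and 28 to 48, and COL3A1 had 59 to 76 and 555 to 606. KRT8 had 22059 to 24914 counts with DMSO and 8578 to 12198 with SCH772984. The part of such differences in the results that follow was not tested. Levels are relative to the RNA sequenced in each library, so that a fall in a transcript and a rise in the rest of the RNA cannot be told apart.

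The promoters of the MEK pair are shown because these paralogs moved in opposite directions with SCH772984. RefSeq (GRCh38.p14) gives MAP2K1 on the plus strand at chr15:66386662-66386816 and MAP2K2 on the minus strand at chr19:4124130-4124372 for the bases just before each gene, each printed 5′ to 3′ on its own strand. Capitals mark matches to the GC box, GGGCGG or its reverse complement CCGCCC, the motif bound by SP1-family factors.
MAP2K1: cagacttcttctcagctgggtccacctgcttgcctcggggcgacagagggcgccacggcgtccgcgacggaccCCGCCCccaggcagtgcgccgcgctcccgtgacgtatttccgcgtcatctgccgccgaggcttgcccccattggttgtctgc
MAP2K2: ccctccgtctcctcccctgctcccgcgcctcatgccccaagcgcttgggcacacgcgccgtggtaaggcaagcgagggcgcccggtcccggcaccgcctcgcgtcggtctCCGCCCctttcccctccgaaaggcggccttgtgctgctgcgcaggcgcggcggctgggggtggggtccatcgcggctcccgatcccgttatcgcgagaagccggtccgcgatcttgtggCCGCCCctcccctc
The MAP2K1 stretch of 155 bases held 1 GC box and 18 CpG dinucleotides. The MAP2K2 stretch of 243 bases held 2 GC boxes and 32 CpG dinucleotides. Over 300-base windows at the first start site listed, MAP2K1 had 3 GC boxes, MAP2K2 had 2 and MAPK3 had 8. A GC box is common, being present in 45% of the 35116 promoter windows of the same length. The ETS core CCGGAAG, present in 10.3% of windows on either strand, was matched 1 time in NRAS and 1 time in HRAS and was not matched in the windows of the other 5 genes. The E-box CACGTG, present in 7.26%, was matched 1 time in NRAS and 1 time in MAPK3. The cyclic AMP response element TGACGTCA (1.85% of windows) and the AP-1 motif TGANTCA (7.71%) were matched in none of the 7 genes. The MAP2K1 and MAP2K2 windows each held no motif of these other than the GC box.

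With DMSO the 7 genes differed widely in level. Per kilobase of gene length as the table gives it, MAP2K2 was the highest at 69.2 ± 5.57 CPM per kb (SD, n = 3), where CPM are counts scaled to a common library size after normalization by the trimmed mean of M-values (TMM). It stood at percentile 94.4 of the 10954 protein-coding genes with at least 10 counts in each library of the group. HRAS (28.9 ± 2.45), NRAS (26.6 ± 1.44) and ARAF (25.6 ± 0.187) followed, and the libraries of neighbours in this order overlapped. MAPK3 (11.5 ± 1.02) and MAP2K1 (11.1 ± 0.902) came next and also overlapped. BRAF was the lowest at 1.69 ± 0.123 CPM per kb. Its annotated exons add up to 23432 bases, against a median of 2561 bases for its basic coding transcripts, and over the latter length its mean level was 15.4 CPM per kb. The order depended on the length used. With compound 1 the first 4 places per gene length were the same and MAP2K1 and MAPK3 again overlapped. With SCH772984 these last 2 genes no longer overlapped, with MAPK3 at 18.3 ± 1.47 and MAP2K1 at 7.22 ± 0.879 CPM per kb.

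Over the median length of coding transcripts MAPK3 and MAP2K1 did not overlap in any group. MAPK3 was at 29.8 ± 2.67 and MAP2K1 at 17.2 ± 1.40 CPM per kb with DMSO, at 26.9 ± 2.44 and 16.9 ± 1.19 with compound 1, and at 47.7 ± 3.83 and 11.2 ± 1.36 with SCH772984. On this scale the DMSO order was MAP2K2 (226 ± 18.2), HRAS (48.8 ± 4.12), ARAF (36.8 ± 0.269), MAPK3, NRAS (26.6 ± 1.44), MAP2K1 and BRAF. Of these neighbours, MAPK3 with NRAS and MAP2K1 with BRAF overlapped. MAP2K2 was the highest on both scales in every group.

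**Figure D1:**
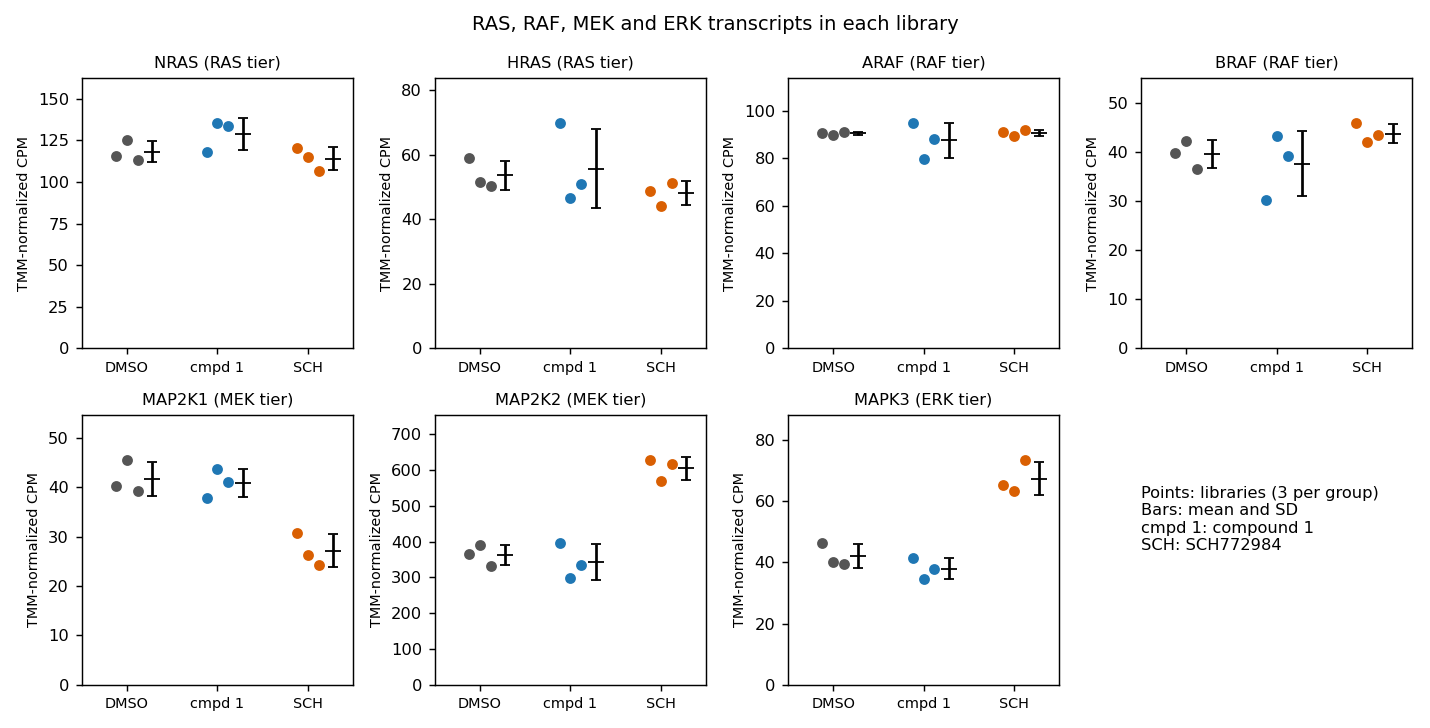
TMM-normalized CPM (vertical axes from 0) of each gene in each of the 9 libraries, with DMSO in grey, compound 1 (cmpd 1) in blue, SCH772984 (SCH) in orange, and the mean and SD as bars. The 3 SCH772984 libraries lie below all others for MAP2K1 (24.3 to 30.8) and above all others for MAP2K2 (568.3 to 627.3) and MAPK3 (63.1 to 73.3), and the groups overlap for the other 4 genes.

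ERK inhibition moved 3 of the 7 transcripts, with MAP2K2 and MAPK3 higher and MAP2K1 lower than with DMSO, while NRAS, HRAS, ARAF and BRAF did not pass the test. The call for a gene was edgeR's quasi-likelihood test at an adjusted p under 0.05, with Benjamini-Hochberg adjustment over the whole table tested. SCH772984 changed a large part of the transcriptome, with 72.8% of 13834 genes called in either direction, 37.2% higher and 35.5% lower. The 3 calls among 7 genes, 42.9%, are therefore a smaller share than that over all genes. The groups did not overlap for 3 of the 7 genes, against 74.3% of all genes.

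Within the MEK tier the paralogs went in opposite directions. MAP2K1 (ENSG00000169032, chr15:66386817-66492312, plus strand) encodes MEK1. Its level was 40.2, 45.5 and 39.2 CPM in the DMSO libraries and 30.8, 26.3 and 24.3 CPM in the SCH772984 libraries, with 358 to 412 and 312 to 370 counts. Every SCH772984 library was below every DMSO library. The log2 fold change was -0.63 ± 0.10 (SE, 95% interval -0.83 to -0.43), 1.54-fold lower, with an adjusted p of 2.77e-07 by edgeR. Of its exon bases, 11.5% are shared with an antisense gene on the opposite strand, AC116913.1, which had 0 to 7 counts. SNAPC5, which shares 216 bases, had 67 to 111. The processed copy MAP2K1P1 had at most 5 counts.

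MAP2K2 (ENSG00000126934, chr19:4090321-4124129, minus strand) encodes MEK2, the paralog of MEK1 that phosphorylates the same ERK residues. Its level was 364.3, 390.6 and 332.3 CPM with DMSO and 627.3, 568.3 and 616.3 CPM with SCH772984. The lowest SCH772984 library was well above the highest DMSO library. MAP2K2 rose by 0.73 ± 0.06 on the log2 scale (SE, 95% interval 0.61 to 0.86), 1.66-fold, with an adjusted p of 3.55e-14 by edgeR. This placed MAP2K2 at percentile 75.6 and MAP2K1 at percentile 20.7 of the log2 fold changes of all genes tested, so that neither change was extreme for this inhibitor.

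Within each library the ratio of both MEK counts does not depend on the scaling between libraries. The log2 ratio of MAP2K1 to MAP2K2 counts was -3.18, -3.10 and -3.08 with DMSO and -4.35, -4.43 and -4.66 with SCH772984. The difference of the means was -1.36, which is a 2.57-fold lower ratio, and the groups did not overlap. The two-sided exact permutation test gave p = 0.1, the smallest that 3 against 3 libraries can give, and 0.45 after adjustment over 9 ratio tests, so that this test cannot pass the threshold. MAP2K1 made up 13.8 ± 0.418% of the MEK transcripts per length with DMSO and 5.89 ± 0.613% with SCH772984 (SD, n = 3). Counted over the median length of the coding transcripts instead, these shares were 7.07 ± 0.231% and 2.89 ± 0.310%. The summed level of both genes was 80.3 ± 6.40 CPM per kb with DMSO and 123 ± 6.38 with SCH772984, 1.53-fold higher and without overlap (two-sided exact permutation p = 0.1, adjusted p = 0.24 over 12 sums). The sum thus did not stay level. The gain in MAP2K2 was larger than the loss in MAP2K1, since MAP2K2 was already the more abundant of the pair.

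**Figure D2:**
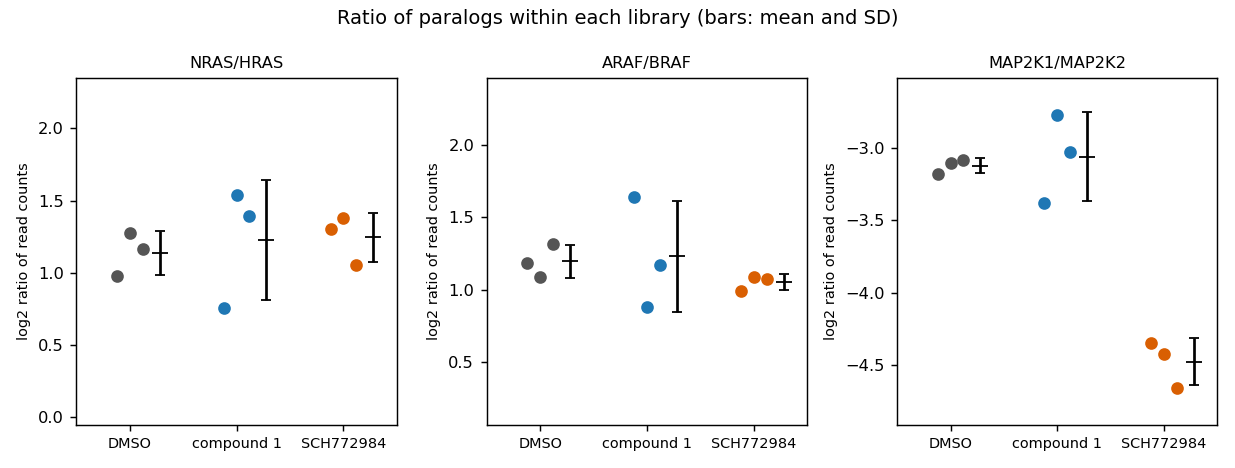
Log2 ratio of read counts of each paralog pair within each library (vertical axis, the same span in each panel), with DMSO in grey, compound 1 in blue, SCH772984 in orange, and the mean and SD as bars. The MAP2K1/MAP2K2 ratio lies between -4.66 and -4.35 in the SCH772984 libraries and between -3.38 and -2.77 in the other 6, while the groups overlap for NRAS/HRAS and ARAF/BRAF.

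MAPK3 (ENSG00000102882, chr16:30114105-30123506, minus strand) encodes ERK1, itself a target of SCH772984. Its level was 46.3, 40.2 and 39.5 CPM with DMSO and 65.1, 63.1 and 73.3 CPM with SCH772984. All SCH772984 libraries were above all DMSO libraries. MAPK3 rose by 0.67 ± 0.08 on the log2 scale (SE, 95% interval 0.50 to 0.84), 1.59-fold, with an adjusted p of 2.02e-09 by edgeR, at percentile 74.2 of all genes. With a single gene of this tier analysed, no paralog ratio was formed.

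In the RAS tier neither transcript was called. NRAS (ENSG00000213281, chr1:114704469-114716894, minus strand), a RAS gene often mutated in melanoma and leukaemia, was at 115.9, 125.4 and 113.3 CPM with DMSO and 120.3, 115.3 and 106.8 CPM with SCH772984. The ranges overlapped. The log2 difference was -0.06 (95% interval -0.20 to 0.08, adjusted p = 0.466 by edgeR), so that in fold terms the interval ran from 0.873 to 1.06. HRAS (ENSG00000174775, chr11:532242-537287, minus strand), the homolog of a sarcoma virus oncogene, was at 58.9, 51.7 and 50.5 CPM with DMSO and 48.8, 44.2 and 51.4 CPM with SCH772984, with an overlap in 1 SCH772984 library. Its log2 difference was -0.16 (95% interval -0.33 to 0.0095, adjusted p = 0.0839 by edgeR). Without DMSO replicate 3 it was -0.22 (adjusted p = 0.035), and without SCH772984 replicate 3 it was -0.22 (adjusted p = 0.0199), so that the call for HRAS turns on either library. The NRAS to HRAS log2 count ratio differed by 0.11 (two-sided exact permutation p = 0.5), with overlapping groups. The sum of both, 55.5 ± 2.60 CPM per kb with DMSO and 51.6 ± 1.80 with SCH772984, also overlapped (difference -0.10 on the log2 scale, two-sided exact permutation p = 0.2).

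Neither RAF transcript was called. ARAF (ENSG00000078061, chrX:47561100-47571920, plus strand), the RAF kinase with low catalytic activity, was at 90.6, 89.8 and 91.1 CPM with DMSO and 91.0, 89.1 and 91.6 CPM with SCH772984. The groups overlapped, and the log2 difference was -0.0042 (95% interval -0.14 to 0.14, adjusted p = 0.96 by edgeR). BRAF (ENSG00000157764, chr7:140719327-140924928, minus strand), the RAF kinase most often mutated in cancer, was at 39.8, 42.3 and 36.6 CPM with DMSO and 45.8, 42.0 and 43.4 CPM with SCH772984. Its lowest SCH772984 library fell just within the DMSO range, and the log2 difference was 0.14 (95% interval -0.04 to 0.32, adjusted p = 0.149). BRAF shares 1239 exon bases, 5.29% of its exons, with NDUFB2 on the opposite strand, which had 894 to 1666 counts, and whether counting used the strand is not given in the sources used here. The ARAF to BRAF log2 count ratio differed by -0.15 (two-sided exact permutation p = 0.2) and the summed level by 0.01 on the log2 scale (p = 0.4 by the same exact test), both with overlapping groups.

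The calls outside the MEK and ERK tiers depended on the scaling and the filter. With TMM the median change over the whole table was 0.03 on the log2 scale. Scaling by library size alone moved the log2 fold changes up by 0.17 at the median, and the share of all calls that were higher went from 51.2% to 61.5%. Under that scaling ARAF at 0.17 (adjusted p = 0.0243) and BRAF at 0.31 (adjusted p = 0.00137) were also called higher by edgeR, and the NRAS and HRAS differences turned positive, at 0.12 and 0.01. BRAF was also called under a filter of 10 counts in each library (0.22, adjusted p = 0.0227) and over protein-coding genes alone (0.19, adjusted p = 0.046). The ARAF value lies close to the median shift of all genes under that scaling. The direction and the call of MAP2K1, MAP2K2 and MAPK3 were the same in each of 14 alternatives of scaling, filter, model, tool and left-out library, with log2 fold changes of -0.74 to -0.45 for MAP2K1, 0.65 to 0.91 for MAP2K2 and 0.60 to 0.85 for MAPK3. A requirement of at least a 2-fold change ended all 3 calls.

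Compound 1 moved none of the 7 transcripts past the test. The comparison with DMSO asks whether TBK1–IKKε inhibition, at the same dose and time, touches the cascade at the RNA level. By edgeR, 0 of the 7 genes were called after adjustment and 0 at an unadjusted p under 0.05, where the lowest adjusted p was 0.491. Of all 12849 genes 0.864% were called after adjustment (0.490% higher and 0.374% lower) and 15.0% at the unadjusted threshold. DESeq2 also called 0 of the 7 genes. The groups overlapped for each of the 7 genes and did not overlap for 20.9% of all genes. Log2 differences ran from -0.15 for MAPK3 to 0.13 for NRAS, and the 95% intervals together spanned -0.36 to 0.32, so that changes as large as those of MAP2K1, MAP2K2 and MAPK3 with SCH772984 lay outside the intervals of these genes.

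In the MEK tier with compound 1, MAP2K1 was at 37.9, 43.6 and 41.1 CPM and MAP2K2 at 395.5, 298.0 and 334.7 CPM, both overlapping DMSO. MAPK3 was at 41.3, 34.5 and 37.7 CPM, with 1 library above 2 of the DMSO libraries. NRAS was at 117.8, 135.3 and 133.8 CPM, and HRAS at 69.8, 46.6 and 50.8 CPM. ARAF was at 94.6, 79.7 and 88.0 CPM and BRAF at 30.3, 43.2 and 39.2 CPM. In these values the first library, the one that stood apart, was the highest of its group for HRAS, ARAF, MAP2K2 and MAPK3 and the lowest for NRAS, BRAF and MAP2K1. The spread within the group was accordingly wide, with a coefficient of variation of 22.2% for HRAS and 17.7% for BRAF, against 8.45% and 7.27% with DMSO.

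Without that library 2 genes were called by edgeR with compound 1. NRAS was higher by 0.19 on the log2 scale (adjusted p = 0.046) and MAP2K2 was at -0.19 (adjusted p = 0.0292), while HRAS changed sign to -0.14, BRAF to 0.07 and MAP2K1 to 0.03. Over all genes the calls rose from 63 higher and 48 lower to 453 higher and 798 lower. Leaving out any 1 of the other 5 libraries lowered them, to between 5 higher and 3 lower (without DMSO replicate 2) and 27 higher and 24 lower (without compound 1 replicate 2), and the replicate block gave 193 and 219.

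With all 3 libraries, the paralog log2 ratios with compound 1 differed from DMSO by 0.09 for NRAS/HRAS, 0.03 for ARAF/BRAF and 0.06 for MAP2K1/MAP2K2, each with overlapping groups (two-sided exact permutation p = 0.7, 0.9 and 0.7). Without replicate 1 of compound 1 the differences were 0.33, -0.17 and 0.22 (exact permutation p = 0.2, 0.4 and 0.2, where 2 against 3 libraries cannot go below 0.2). NRAS/HRAS and MAP2K1/MAP2K2 then no longer overlapped DMSO, and ARAF/BRAF changed sign. The summed log2 levels differed from DMSO by 0.09 for RAS, -0.05 for RAF, -0.08 for MEK and -0.15 for ERK with all libraries, each with overlap. Without replicate 1 they differed by 0.03, -0.10, -0.16 and -0.22, and the RAF and ERK values no longer overlapped DMSO.

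**Figure D3:**
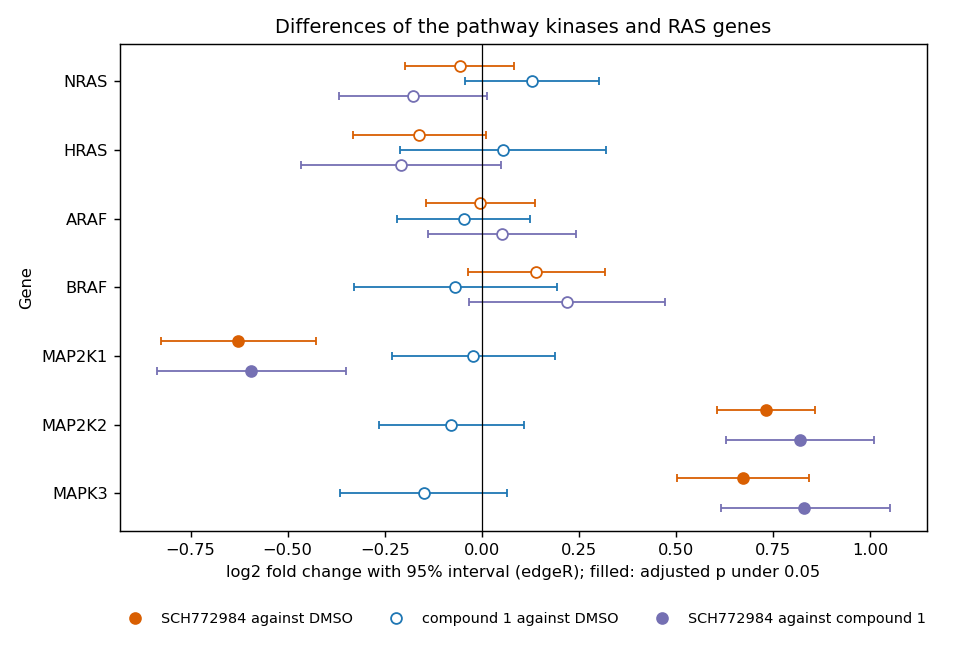
Log2 fold change (horizontal axis) of each gene with its 95% interval from edgeR, for SCH772984 against DMSO (orange), compound 1 against DMSO (blue) and SCH772984 against compound 1 (purple), filled where the adjusted p was under 0.05. MAP2K1 lies below 0 and MAP2K2 and MAPK3 above 0 in both comparisons of SCH772984, and each interval for compound 1 against DMSO spans 0.

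The inhibitors were also compared directly, at the same dose and time. In the fit of SCH772984 against compound 1, 66.3% of 13863 genes were called (33.7% higher and 32.6% lower with SCH772984), and 3 of the 7 genes were. The groups did not overlap for the same 3 genes and for 69.3% of all genes. MAP2K2 was higher with SCH772984 by 0.82 ± 0.09 on the log2 scale (SE, adjusted p = 1.33e-07) and MAPK3 by 0.83 ± 0.10 (adjusted p = 5.27e-07). MAP2K1 was at -0.59 ± 0.12 (adjusted p = 0.000143 by edgeR). The other 4 genes were not called, with log2 differences of -0.21 for HRAS, -0.18 for NRAS, 0.05 for ARAF and 0.22 for BRAF. Single libraries decided some of these by edgeR. Without compound 1 replicate 1 NRAS was called at -0.24 (adjusted p = 0.00857), and without compound 1 replicate 2 HRAS was called at -0.33 (adjusted p = 0.0229) and BRAF at 0.33 (adjusted p = 0.0288). BRAF was also called under library size alone (0.35, adjusted p = 0.0176) and the filter of 10 counts in each library (0.29, adjusted p = 0.0385). The MAP2K1 to MAP2K2 ratio was 2.68-fold lower with SCH772984 than with compound 1, without overlap (two-sided exact permutation p = 0.1). The RAS sum also did not overlap between the inhibitors, at 51.6 ± 1.80 CPM per kb with SCH772984 and 59.0 ± 4.49 with compound 1 (difference -0.19 on the log2 scale, two-sided exact permutation p = 0.1, adjusted p = 0.24). The NRAS/HRAS and ARAF/BRAF ratios overlapped between the inhibitors, with differences of 0.02 and -0.18 on the log2 scale. Without compound 1 replicate 1 these became -0.22, without overlap, and 0.03, while the MAP2K1/MAP2K2 difference went from -1.42 to -1.58 and the RAS sum difference to -0.13, both still without overlap. The RAF sum difference went from 0.06 with overlap to 0.11 without, and the MEK and ERK sums, at 0.69 and 0.83 with all libraries, were at 0.77 and 0.89, without overlap in either case. Since each inhibitor was set against the same DMSO libraries, the 3 comparisons are not independent of each other.

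Across the 9 libraries the MEK and ERK genes varied together, as a description over 3 groups of libraries that share a treatment. Pearson's r of log2 CPM was 0.97 for MAP2K2 with MAPK3, -0.89 for MAP2K1 with MAP2K2 and -0.94 for MAP2K1 with MAPK3. The genes most like each member among 9959 genes were QTRT2 and YWHAG for MAP2K1 (r = 0.993 for each), PCCB for MAP2K2 (0.997), and DIRC2 and KIF1A for MAPK3 (0.993 and 0.992). Such likeness was common, with 2050, 1289 and 1331 genes at an r of at least 0.9. Since r spans the treatment groups, these numbers largely follow from the calls and are not a separate result. Likeness at that r was rare for the genes that did not pass the test. NRAS was most like DNAJC21 (0.966) and had 5 such genes, HRAS was most like BSG (0.973) and had 38, ARAF was most like TMEM69 (0.927) and had 3, and BRAF was most like MIB1 (0.95) and had 19.

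The transcripts around the cascade were read from 9 lists of 90 genes, ordered by role. With SCH772984 74 of them were tested, of which 19 rose and 40 fell. Outside the list of MAPK output genes, whose members are known targets of the pathway, 18 of 65 rose and 32 fell, and 76.9% were called against 72.8% of all genes. Lower calls made up 49.2% of these 65 genes and 35.5% of all genes, and higher calls 27.7% and 37.2%. The shares over all genes are the background for the counts of each list that follows.

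Upstream of RAS, the activators and adaptors split, with 3 of 9 tested genes higher and 4 lower (median log2 fold change 0.25, against 0.03 over all genes). With no filter on low counts 5 were called higher, with RASGRP2 (adjusted p = 0.0459 by edgeR) and RASGRP3 (0.00884) added. SOS1 and SOS2, the exchange factors that load RAS with GTP, rose from 43.1 ± 2.75 to 62.0 ± 5.87 CPM and from 31.4 ± 2.77 to 41.5 ± 2.62 CPM. SHC1, an adaptor that links receptors to GRB2 and SOS, fell from 533 ± 5.32 to 129 ± 5.96 CPM (4.14-fold). PTPN11, the phosphatase SHP2 that promotes RAS activation, fell from 274 ± 9.80 to 130 ± 9.55 CPM. Of the GTPase-activating proteins, which switch RAS off, 3 of 7 rose and 4 fell (median -0.22). The lower call by edgeR for DAB2IP was lost under library size alone (adjusted p = 0.603), the filter of 10 counts in each library (0.116) and protein-coding genes alone (0.0527). RASAL2 rose 1.59-fold, while RASA2 was 2.04-fold lower and RASA3 1.74-fold lower.

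The RAS-related GTPases were called in 11 of 11 cases, 4 higher and 7 lower (median -0.34), where 72.8% of all genes were called. The lower calls by edgeR for RRAS2 (adjusted p = 0.0634) and RAP1A (0.471) were lost under library size alone, and that for RAP1A also under the filter of 10 counts in each library (0.0833) and without SCH772984 replicate 3 (0.0812). MRAS, which with SHOC2 and a phosphatase subunit helps to activate RAF, rose from 5.86 ± 0.905 to 38.8 ± 1.45 CPM, a 6.59-fold change. RIT1, a relative of RAS mutated in Noonan syndrome, rose 1.85-fold. RALB, a GTPase activated downstream of RAS, fell from 92.4 ± 2.60 to 23.3 ± 2.59 CPM (3.98-fold), and RAP2B was 2.82-fold lower. Among the genes of RAS processing and turnover, 1 of 9 rose and 4 fell (median -0.25). LZTR1, a substrate adaptor for the ubiquitination of RAS proteins, rose 1.59-fold. ICMT and RCE1, which methylate and cleave the prenylated RAS tail, were 1.88-fold and 1.78-fold lower.

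Around RAF and MEK, 1 of 10 scaffolds and RAF regulators rose and 6 fell (median -0.39). IQGAP1, a scaffold of the cascade, rose by 0.24 on the log2 scale, PEA15, which holds ERK in the cytoplasm, was at -0.91, and YWHAB, a 14-3-3 protein that binds RAF, was at -0.89. Higher calls in this list went from 1 to 3, with KSR1 and PEBP1 added, under library size alone, the filter of 10 counts in each library or protein-coding genes alone, and to 2 with KSR1 added without SCH772984 replicate 3. Of 5 other kinases that can activate MEK, 2 rose and 1 fell (median -0.06), with MAP3K10 at 0.46 and MAP3K11 at -0.47. The other higher call, for MAP3K8 (0.94, adjusted p = 0.019 by edgeR), was lost with DESeq2 (adjusted p = 0.0558), without DMSO replicate 3 (0.18) and without SCH772984 replicate 2 (0.0577), and MAP3K8 was not tested under the filter of 10 counts in each library. Of the 4 other MAP kinase kinases, which serve the p38, JNK and ERK5 cascades, 1 rose and 3 fell (median -0.38). The lower call by edgeR for MAP2K4 was lost under library size alone (adjusted p = 0.507), the filter of 10 counts in each library (0.0981) and without SCH772984 replicate 3 (0.0588). MAP2K3, an activator of p38, fell from 82.3 ± 3.94 to 35.1 ± 3.93 CPM, a larger fold change than that of either MEK gene. MAP2K7, an activator of JNK, was 1.43-fold lower, and MAP2K5, the activator of ERK5, rose by 0.37 on the log2 scale (adjusted p = 0.0256 by edgeR). The MAP2K5 call was lost with DESeq2 (adjusted p = 0.0594), with no filter (0.0702), and without DMSO replicate 2 (0.157), DMSO replicate 3 (0.0517) or SCH772984 replicate 2 (0.187). Of 10 other MAP kinases 3 rose and 3 fell (median -0.04). The p38 kinase genes MAPK11 and MAPK12 rose by 0.89 and 0.50 on the log2 scale, while MAPK14, the main p38 isoform gene, was at -0.46 and MAPK6 at -0.45.

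**Figure D4:**
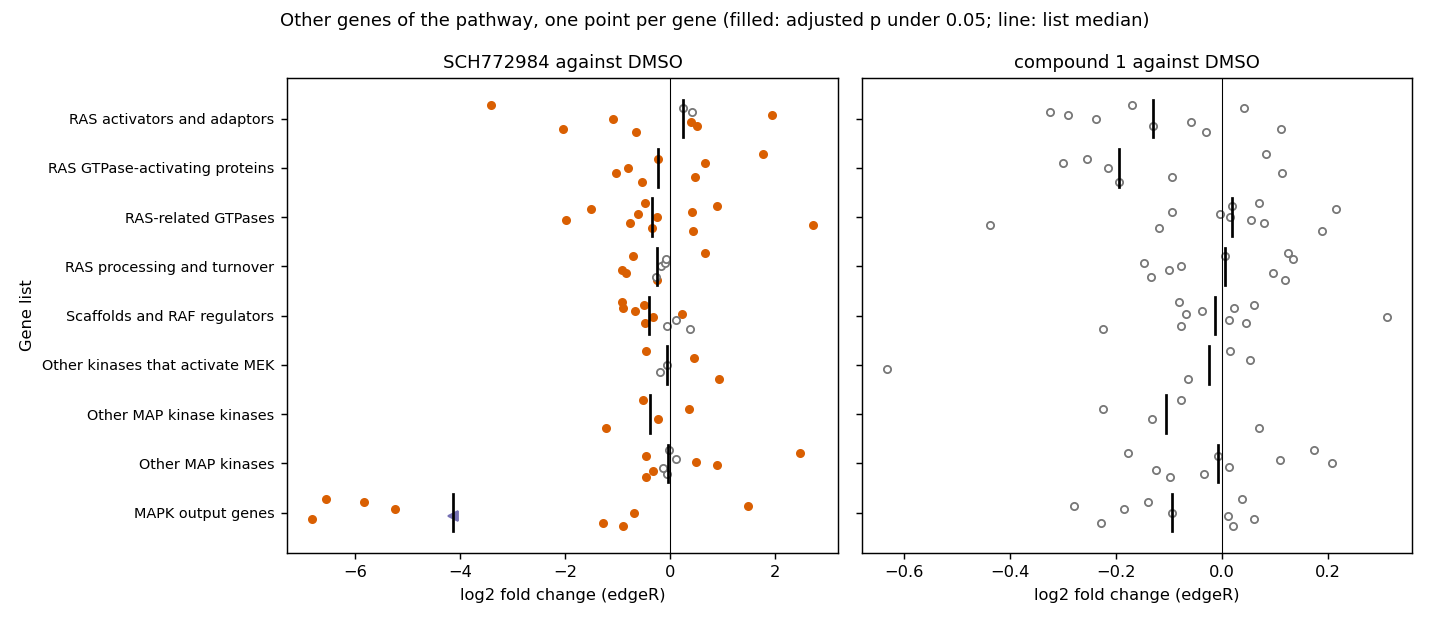
Log2 fold change (horizontal axes, which differ in scale) of each tested gene of the 9 pathway lists with SCH772984 (left) and compound 1 (right) against DMSO, filled orange where the adjusted p was under 0.05, with the list median as a line and the triangle giving DUSP6 at its bound, which the line for that list also uses. The SCH772984 panel holds filled points on both sides of 0 in each list, and the compound 1 panel holds none.

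The MAPK output genes give the background on which the MEK and ERK transcripts moved, with 8 of 9 lower and 1 higher. SPRY4, a Sprouty inhibitor of the pathway, went from 232 ± 5.19 to 2.01 ± 0.648 CPM, and ETV5, an ETS transcription factor, from 72.9 ± 1.03 to 0.772 ± 0.0942 CPM. DUSP6, the phosphatase that acts on ERK, had 25 to 51 counts with DMSO and 0 or 1 with SCH772984, at least 17.7-fold lower against a floor of 3 counts per library. Under the filter of 10 counts in each library 5 were called lower, since DUSP6, ETV4 and ETV5 were then not tested. The list median was -5.24 with the fitted value of DUSP6 and -4.14 with its bound. EPHA4, an ephrin receptor, rose from 221 ± 5.20 to 619 ± 27.1 CPM.

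With compound 1, 0 of the 72 list genes tested passed after adjustment, and 9 did at an unadjusted p under 0.05 by edgeR, 2 higher and 7 lower, where the shares over all genes were 0.864% and 15.0%. List medians lay between -0.19 and 0.02. SPRY4 was at 241 ± 9.75 CPM and ETV5 at 74.8 ± 8.48, both close to DMSO. SHC1 was at 575 ± 10.8 CPM, MRAS at 4.33 ± 0.875 and MAP2K3 at 86.3 ± 10.4. Without replicate 1 of compound 1, 1 list gene was called higher and 4 lower, against 453 higher and 798 lower of 13084 genes.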

How the data were processed

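The authors deposited whole-number read counts per gene, without normalization, for 9 libraries made and sequenced by a commercial provider. The submitters' processing notes name HISAT2 2.0.5, featureCounts 1.5.0-p3 and hg38. Gene coordinates follow the deposited table. Counts were fitted with edgeR 4.0.16 in R 4.3.3 (quasi-likelihood, robust, TMM, filterByExpr with a minimum count of 10 and a minimum total of 15), in a separate fit for each comparison of 2 groups, with Benjamini-Hochberg adjustment over all genes tested. The edgeR fit alone was tested on simulated counts, with 200 genes changed, far fewer than were called with SCH772984. The ratios, sums and permutation tests were not simulated. Paralog ratios used a pseudocount of 0.5, and ratios and tier sums were compared by two-sided exact permutation tests (scipy 1.17.1). Groups came from the labels.

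The members and lists were chosen with earlier results of these data known. From each list, up to 2 higher and 2 lower genes were named, those with the largest change among called genes averaging at least 5 CPM and without overlap between groups. Some genes that the rules for naming give are not reported here. DUSP6, ETV4, MAP2K1P1, MAP3K8, KSR1, PEBP1, RASGRP2, RASGRP3, RRAS2, RAP1A, DAB2IP and MAP2K4 were named after their values were seen. Likeness was Pearson's r of log2 CPM over 9 libraries. Motifs were searched on both strands.

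Alternatives were DESeq2 1.42.0, RLE factors, library size alone, no filter, a filter of 10 counts in every library, a joint fit of the 9 libraries, a replicate block, protein-coding genes only, a 2-fold requirement and leaving out each library. For levels and tier sums, the length of coding transcripts was an alternative chosen after seeing the data. Library totals of 9464432 to 13887859 counts set the precision, which the standard errors include.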

Additional observations from a re-analysis of the deposited data

How the results depend on the processing

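With SCH772984 against DMSO, 85 of 98 alternative values of the 7 genes kept their direction and their side of the threshold, 8 changed sign and 6 became called, with 1 value, ARAF under library size alone, counted in both. The numbers for compound 1 against DMSO were 89, 7 and 2, and for SCH772984 against compound 1 92, 1 and 5. Scaling by library size alone called 4 members higher with SCH772984 (ARAF, BRAF, MAP2K2 and MAPK3). Under it the values that changed sign were ARAF at 0.17, NRAS at 0.118, HRAS at 0.0133 and the RAS sum at 0.0644, the last 3 not past the threshold, and MAP2K1 at 0.00759 with compound 1. Requiring at least 10 counts in every library gave NRAS at 0.0227 and ARAF at 0.0755, protein-coding genes alone ARAF at 0.0444, and a joint fit of all libraries ARAF at 0.00146. A change of at least 2-fold left 0 members higher and 0 lower in either comparison of SCH772984, and 5 list genes higher and 13 lower against DMSO or 6 and 12 against compound 1. For list genes with compound 1, no filter gave 2 lower, and an unadjusted p 2 higher and 7 lower.

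Leaving out one library gave 1 to 2 members lower in either comparison of SCH772984, and 0 to 1 higher and 0 to 1 lower with compound 1, where list calls were 0 to 1 higher and 0 to 4 lower. Among members whose direction turned, ARAF ranged from -0.0297 to 0.00252 with SCH772984 against DMSO and from -0.0185 to 0.109 against compound 1. With compound 1, HRAS ranged from -0.136 to 0.162, ARAF from -0.105 to 0.00892, BRAF from -0.19 to 0.0651, MAP2K1 from -0.0794 to 0.0418 and MAP2K2 from -0.19 to 0.00651. Ratio differences with compound 1 ranged from -0.0652 to 0.326 for NRAS/HRAS, -0.172 to 0.209 for ARAF/BRAF and -0.0833 to 0.223 for MAP2K1/MAP2K2, and the RAF sum from -0.1 to 0.00103. Between the inhibitors they ranged from -0.22 to 0.171 for NRAS/HRAS and -0.355 to 0.0266 for ARAF/BRAF. With SCH772984 against DMSO they kept their sign but varied in size, from 0.0239 to 0.201 for NRAS/HRAS and -0.201 to -0.0853 for ARAF/BRAF. The RAF sum difference there ranged from 0.00294 to 0.0233. The cause of these changes was not tested.

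Deviations of same-numbered libraries from their group means correlated at -0.08 to 0.11. Libraries of different numbers were not compared in this way, so that these values cannot settle whether replicate numbers paired the libraries. The replicate block changed no member's call, with MAP2K1 at -0.62, MAP2K2 at 0.73 and MAPK3 at 0.67 for SCH772984 against DMSO, and gave 2 list genes lower with compound 1. With 3 libraries a group, exact tests cannot go below p = 0.1, and with 2 against 3 not below 0.2.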
